A study of Mus musculus with 33 samples.

Results

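Autophagy and the lysosome break down cell components, and 46 mouse genes of this system were followed in liver. Members were all probe sets of the array whose annotated gene symbol was 1 of the 46, which gave 106 probe sets. Of these, 84 reached a log2 value of 4 in at least 10 of the 33 arrays, and they covered 45 of the 46 genes among 9005 genes tested in all. Each gene was read from its brightest probe set, and Tfeb did not pass this filter.

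Livers came from 33 male C57BL/6J mice aged 17 weeks after 2 weeks on 1 of 3 diets, with 1 Affymetrix array per mouse. All diets were the same research diet with an added oil at 7% of energy, and all mice were fasted from hour 7 to hour 13 before they were killed. The 10 control mice received sunflower oil, of which 81.3% was oleic acid. The 12 fenofibrate mice received the sunflower oil diet with 0.03% (w/w) fenofibrate, a drug that activates the fatty acid receptor PPARα, and the 11 fish oil mice received fish oil in its place, of which EPA made up 23.1% and DHA 21.1%.

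In autophagy a double membrane grows around a portion of cytoplasm, closes to an autophagosome and fuses with a lysosome, an acidic organelle filled with hydrolases. Kinases start the membrane, 2 ubiquitin-like conjugation systems extend it, and lipid-bound LC3 and GABARAP proteins hold cargo receptors. In liver the process supplies amino acids and fatty acids during fasting, and the lysosomal acid lipase releases fatty acids and cholesterol from engulfed lipid droplets and lipoproteins. Transcription of many of these genes is governed by TFEB and TFE3, which bind a CACGTG-centred element, and PPARα has been tied to autophagy genes in the fasted liver.

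Values below are log2 expression values, and differences are log2 differences ± SE from 1 limma model over the 3 diets, adjusted over the 9005 genes. Values of a gene's further probe sets come from the same model fitted to all 17162 probe sets past the filter, adjusted over those. Calls were made at adjusted p values below 0.05. The array table had medians of 2.9 to 2.97 on every array, 7 of 7 measured PPARα target genes were higher on fenofibrate than in controls and 6 of 7 on fish oil, and 13 of 14 hepatocyte marker genes were measured. Controls 1, 2 and 9 differed most: their median distance over the members from the mean of the other controls was 0.18, 0.13 and 0.15. The other controls lay at 0.05 to 0.1, but each of them is part of that mean, which favours smaller distances. Arrays have no read depth, so the number of mice limits precision. Mice were kept 2 to a cage, and cage mates are not marked in the labels. In whole liver, fewer cells of a type and less RNA per cell cannot be told apart.

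Fenofibrate and fish oil livers differed from each other in 23 of 45 members, with the largest differences in Lipa, Map1lc3a, Ctsa and Ctsd. Against controls, fenofibrate raised 13 members and lowered 8 of 45, beside 22% and 18.9% of all genes tested, and the median difference was -0.01, with a median over all genes of 0 at 2 decimals. With fish oil 5 members rose and 7 fell, where 7.53% and 7.00% of all genes did, and the median was 0.01, as over all genes. Between the diets, 13 members were higher and 10 lower on fenofibrate than on fish oil, beside 19.8% and 19.1% of all genes. Both comparisons with controls share the same 10 control mice. Differences were small: the median size among the called members was 0.26, 0.27 and 0.26 in the 3 comparisons.

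**Figure D1:**
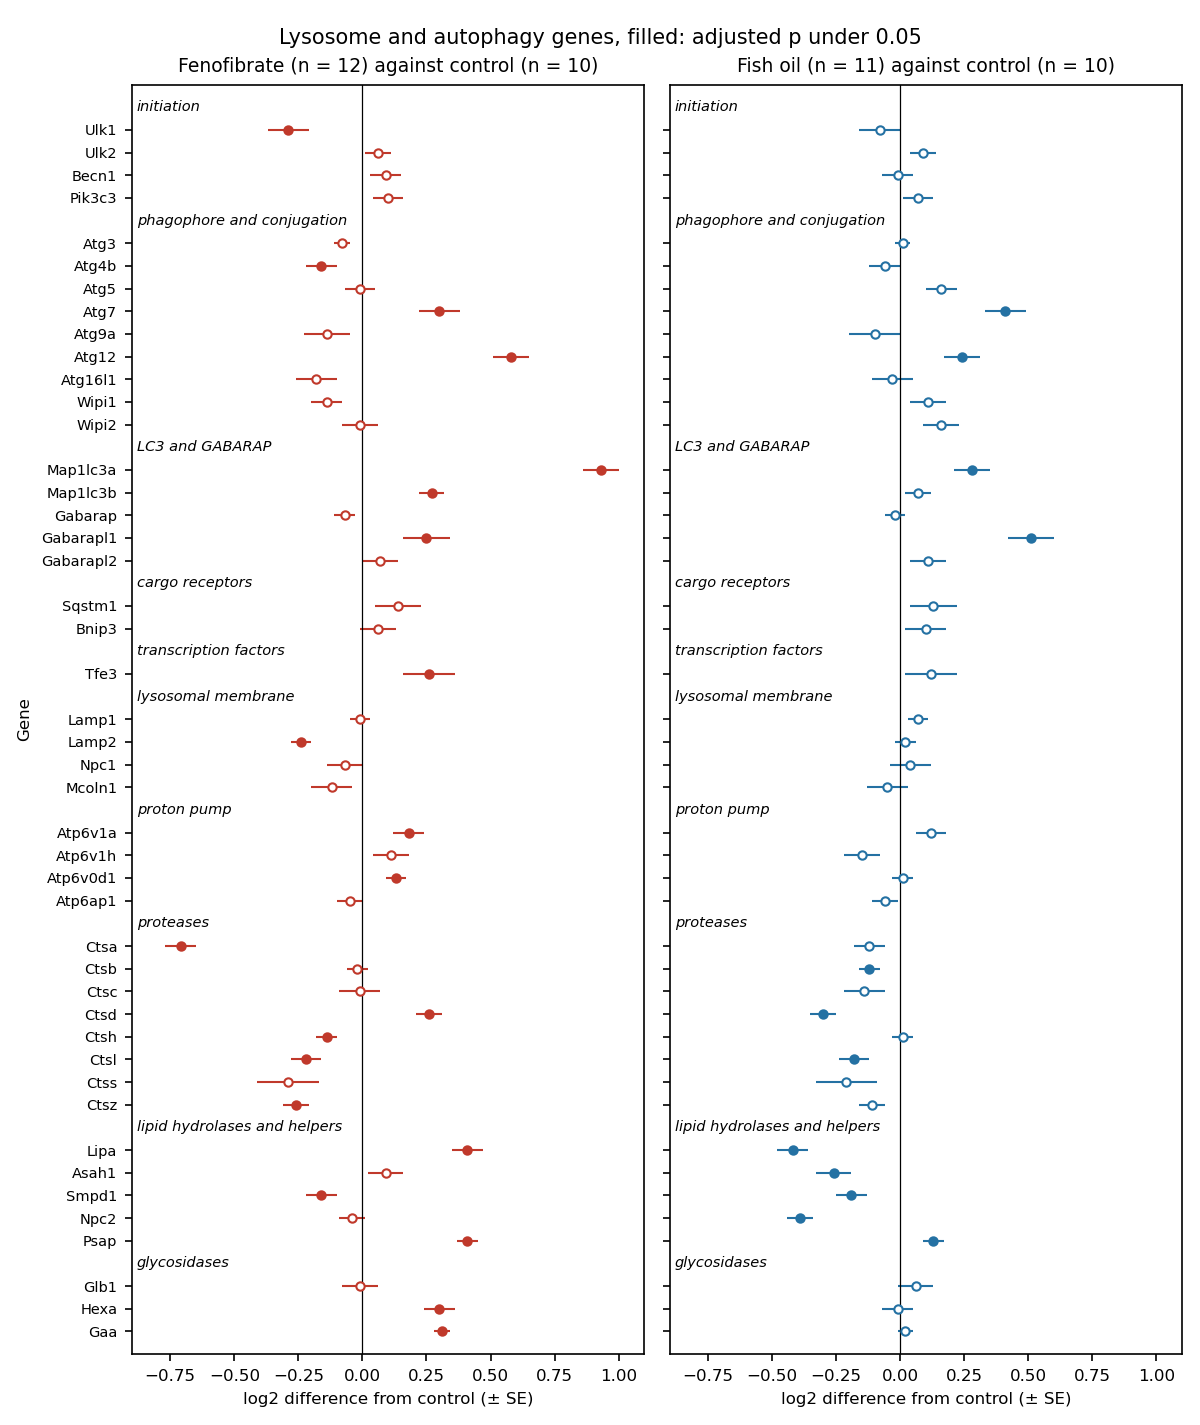
Log2 difference from control (horizontal axis, ± SE) of each of the 45 measured members, ordered by role, for fenofibrate (left, 12 against 10 mice) and fish oil (right, 11 against 10). Filled points passed an adjusted p of 0.05; Map1lc3a reached 0.93 and Ctsa -0.71 on fenofibrate, while Lipa lay at 0.41 on fenofibrate and -0.42 on fish oil.

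Promoter sequences are shown for 5 members that hold TCACGTGA, the core of the element that TFEB and TFE3 bind, and for Lipa, which moved in opposite directions on the diets. They come from RefSeq on GRCm38.p6, with windows from 250 bases before to 50 bases after each annotated start, in which 36 of the 46 members were found. Capitals mark the 8-letter match, which reads the same on both strands and contains the shorter CACGTG, and each line runs 5′ to 3′ on the gene's strand.
Ctsa: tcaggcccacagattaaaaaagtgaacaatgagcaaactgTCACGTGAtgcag
Ctsd: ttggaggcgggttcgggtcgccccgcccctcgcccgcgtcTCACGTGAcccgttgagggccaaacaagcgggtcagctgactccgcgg
Mcoln1: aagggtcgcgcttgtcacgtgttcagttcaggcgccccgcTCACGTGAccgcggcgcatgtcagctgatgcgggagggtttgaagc
Atp6v1a: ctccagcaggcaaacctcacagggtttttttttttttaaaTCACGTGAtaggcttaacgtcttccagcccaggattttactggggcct
Atg3: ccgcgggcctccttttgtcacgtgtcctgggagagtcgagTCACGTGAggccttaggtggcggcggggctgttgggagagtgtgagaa
Lipa: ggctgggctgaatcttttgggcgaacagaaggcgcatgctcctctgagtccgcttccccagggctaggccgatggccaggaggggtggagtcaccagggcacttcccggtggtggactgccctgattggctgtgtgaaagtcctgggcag
The Ctsa stretch lies at chr2:164833720-164833772 on the plus strand, with the match from position -13 to -6 relative to 1 annotated start and from 4 to 11, downstream, relative to the other. The Ctsd stretch is chr7:142387879-142387966 on the minus strand, with the match at -99 to -92. For Mcoln1 the stretch is chr8:3500433-3500518 (plus) and the match lies at -46 to -39. For Atp6v1a it is chr16:44139344-44139431 (minus) with the match at -132 to -125, and for Atg3 chr16:45158717-45158804 (plus) with the match at -72 to -65. The Lipa stretch, chr19:34527475-34527624 on the minus strand, covers the 150 bases before the start, and neither motif was found in its window.

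TCACGTGA occurred in the windows of 6 of the 36 members (16.7%) and of 304 of 27025 genes (1.12%). The 6 were Atg3, Mcoln1, Atp6v1a, Atp6v0d1, Ctsa and Ctsd. CACGTG occurred in 13 of the 36 members (36.1%) and in 2187 genes (8.09%). Members that share the 8-letter match did not share a direction: on fenofibrate Ctsa fell by 0.71, Ctsd rose by 0.26, Atp6v1a by 0.18 and Atp6v0d1 by 0.13, and Mcoln1 (-0.12 ± 0.08) and Atg3 (-0.08 ± 0.03) were not called. On fish oil only Ctsd of the 6 was called, and it fell by 0.3. A match in the letters is a description and shows no binding.

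Among the initiation genes, Ulk1, the kinase that starts autophagosome formation, was the only called member. Its log2 value ran from 8.92 to 9.59 in controls (median 9.3), from 8.83 to 9.42 on fenofibrate (median 8.97) and from 9.01 to 9.51 on fish oil (median 9.17). The groups overlapped, with 4 fenofibrate arrays below every control and 8 below every fish oil array. On fenofibrate Ulk1 fell by 0.29 ± 0.08 (1.23-fold, adjusted p = 0.00394), and on fish oil the difference was -0.08 ± 0.08. Its difference between the diets, -0.21 ± 0.08 (adjusted p = 0.034), lost its call without any 1 of fish oil 2, 6 and 9 and fenofibrate 3, 4, 5 and 11 (adjusted p 0.0543 to 0.0722). The mean of its probe sets gave -0.33 (adjusted p = 0.0191).

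Other initiation members stayed within 0.1 of control on both diets. They were Ulk2, the related kinase, Becn1, and Pik3c3, the lipid kinase that Beclin 1 joins. Ulk2 differed by 0.06 ± 0.05 on fenofibrate and 0.09 ± 0.05 on fish oil, and Pik3c3 by 0.1 ± 0.06 and 0.07 ± 0.06. Becn1 was 0.09 ± 0.06 on fenofibrate at its brightest probe set. A second Becn1 probe set gave -0.2 ± 0.06 (adjusted p = 0.00849), a call in the other direction, so the gene's direction depends on the probe set. Without controls 1, 2 and 9 the brightest set gave 0.16 (adjusted p = 0.0486).

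Of the 9 members that build the membrane and conjugate LC3, 2 rose and 1 fell on fenofibrate, beside 22% and 18.9% of all genes. On fish oil 2 rose, beside 7.53%. Both risers were shared: Atg7, the activating enzyme of both conjugation systems, and Atg12, the ubiquitin-like protein joined to ATG5. Atg12 values were 7.04 to 7.64 in controls (median 7.42), 7.67 to 8.16 on fenofibrate (median 7.93) and 7.46 to 7.73 on fish oil (median 7.61). All 12 fenofibrate arrays lay above all controls, and 3 fish oil arrays did. Atg12 rose by 0.58 ± 0.07 on fenofibrate (1.5-fold, adjusted p = 9.63e-09) and by 0.24 ± 0.07 on fish oil (1.18-fold, adjusted p = 0.0123). A second, dimmer Atg12 probe set rose by 0.59 ± 0.07 on fenofibrate and gave 0.11 ± 0.07 on fish oil, which was not called. Between the diets Atg12 was higher on fenofibrate by 0.34 ± 0.06 (adjusted p = 6.45e-05).

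Atg7 was 6.11 to 6.74 in controls (median 6.49), 6.45 to 7.14 on fenofibrate (median 6.75) and 6.69 to 7.06 on fish oil (median 6.86). The highest control was exceeded by 10 of the 11 fish oil arrays and 6 of the 12 fenofibrate arrays. The rise was 0.41 ± 0.08 on fish oil (1.33-fold, adjusted p = 5.91e-04) and 0.3 ± 0.08 on fenofibrate (1.23-fold, adjusted p = 0.00317). Between the diets the difference was -0.11 ± 0.08 (adjusted p = 0.288).

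Atg4b, a protease that trims LC3, fell by 0.16 ± 0.06 on fenofibrate (adjusted p = 0.0308). A second Atg4b probe set gave -0.27 ± 0.1 on fenofibrate (adjusted p = 0.0281) and -0.39 ± 0.09 between the diets (adjusted p = 0.00166). At the brightest set the diets differed by -0.1 ± 0.06, and the mean of both sets gave -0.24 (adjusted p = 3.83e-04). The fenofibrate call was lost without any 1 of controls 5, 6 and 7 and fenofibrate 9, 10 and 12 (adjusted p 0.0553 to 0.0733). Atg3, the E2-like enzyme of LC3, differed by -0.08 ± 0.03 on fenofibrate (adjusted p = 0.0541) and was called without any 1 of 7 arrays, namely controls 1, 5 and 9, fenofibrate 7, 10 and 12 and fish oil 9 (adjusted p 0.0181 to 0.0497). Atg9a, a membrane protein of the vesicles that seed the structure, differed by -0.14 ± 0.09 and -0.1 ± 0.1 on the 2 diets. Atg16l1, which places the ATG12 conjugate on the membrane, differed by -0.18 ± 0.08 on fenofibrate (adjusted p = 0.0799) and was called without fenofibrate 7 or control 7 (adjusted p 0.0212 and 0.0417).

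Atg5 and the phosphoinositide-binding Wipi1 and Wipi2 were called between the diets and not against control. Wipi1 was 6.85 to 7.16 in controls (median 7.0), 6.56 to 7.12 on fenofibrate (median 6.89) and 6.96 to 7.42 on fish oil (median 7.09), with 7 fenofibrate arrays below every fish oil array. It was lower on fenofibrate than on fish oil by 0.25 ± 0.06 (difference -0.25, adjusted p = 0.00199). None of the 4 other Wipi1 probe sets past the filter was called, and their mean with the first gave -0.1 (adjusted p = 0.198). Against control, Wipi1 differed by -0.14 ± 0.06 on fenofibrate and was called without fenofibrate 10 (adjusted p = 0.0431).

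For Atg5 the difference between the diets was -0.17 ± 0.06 (adjusted p = 0.0254), and it was lost without fish oil 9 (-0.15, adjusted p = 0.0529) and without the arrays whose label number carries the letter A (-0.11, adjusted p = 0.218). On fish oil Atg5 differed from control by 0.16 ± 0.06 (adjusted p = 0.0933), and by 0.21 (adjusted p = 0.0345) without controls 1, 2 and 9. For Wipi2 it was -0.17 ± 0.06 (adjusted p = 0.032), lost without any 1 of fish oil 1, 2, 9 and 11 and fenofibrate 3, 10 and 11 (adjusted p 0.051 to 0.0662). The mean of its probe sets gave -0.09 (adjusted p = 0.232). Atg3 was lower on fenofibrate than on fish oil, with a difference of -0.09 ± 0.03 (adjusted p = 0.0276). The Atg3 call was lost without fish oil 4 or 11 (adjusted p 0.0505 to 0.0527).

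The LC3 and GABARAP family held the largest rise of any member. These proteins are joined to a lipid on the autophagosome membrane. On fenofibrate 3 of 5 rose and none fell, beside 22% and 18.9% of all genes. On fish oil 2 of 5 rose, beside 7.53%. Map1lc3a ran from 9.97 to 10.62 in controls (median 10.08), from 10.88 to 11.26 on fenofibrate (median 11.13) and from 10.24 to 10.64 on fish oil (median 10.46). Every fenofibrate array was above every control and every fish oil array, while 1 fish oil array passed the highest control. Map1lc3a rose by 0.93 ± 0.07 on fenofibrate (1.9-fold, adjusted p = 1.46e-12) and by 0.28 ± 0.07 on fish oil (1.22-fold, adjusted p = 0.00629), and the diets differed by 0.65 ± 0.07 (adjusted p = 2.92e-09). The probe set is of a type (x_at) whose probes may bind other transcripts. A second probe set without that mark gave 1.05 ± 0.09, 0.36 ± 0.1 and 0.69 ± 0.09, all called.

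Gabarapl1 showed the larger rise on fish oil. Controls ran from 11.62 to 12.35 (median 12.17), fenofibrate from 11.82 to 12.62 (median 12.37) and fish oil from 12.14 to 12.8 (median 12.63). Again 10 of 11 fish oil arrays and 6 of 12 fenofibrate arrays were above the highest control. The rise was 0.51 ± 0.09 on fish oil (1.42-fold, adjusted p = 2.22e-04) and 0.25 ± 0.09 on fenofibrate (1.19-fold, adjusted p = 0.0308), and the diets differed (-0.26 ± 0.09, adjusted p = 0.0216). The fenofibrate value was 0.12 (adjusted p = 0.297) without controls 1, 2 and 9. It also lost its call without any 1 of controls 1, 2 and 9 and fenofibrate 6, 7, 8 and 12 (adjusted p 0.0504 to 0.0784).

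Map1lc3b, the widely used autophagosome marker LC3B, ran from 12.0 to 12.33 in controls (median 12.16), from 12.3 to 12.59 on fenofibrate (median 12.44) and from 11.96 to 12.5 on fish oil (median 12.22). It rose by 0.27 ± 0.05 on fenofibrate (1.2-fold, adjusted p = 1.29e-04), with 10 of 12 arrays above every control, and differed by 0.07 ± 0.05 on fish oil. All 3 of its probe sets were called higher on fenofibrate. Gabarap (-0.07 ± 0.04 and -0.02 ± 0.04) and Gabarapl2 (0.07 ± 0.07 and 0.11 ± 0.07) were not called on either diet.

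Neither cargo receptor passed the test. Sqstm1, which encodes p62, differed by 0.14 ± 0.09 on fenofibrate and 0.13 ± 0.09 on fish oil. Without controls 1, 2 and 9 the fenofibrate value of Sqstm1 was 0.23 (adjusted p = 0.0328). With array weights Sqstm1 was called on both diets, at 0.23 (adjusted p = 0.014) and 0.22 (adjusted p = 0.0428). Bnip3, a mitophagy receptor, differed by 0.06 ± 0.07 and 0.1 ± 0.08.

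Of the transcription factors of the pathway, Tfeb lay around the filter. It ran from 3.68 to 4.27 in controls, from 3.42 to 3.85 on fenofibrate and from 3.61 to 4.7 on fish oil (medians 3.94, 3.74 and 3.84), and 7 of the 33 arrays reached 4. Tfeb was therefore not tested with the others. Tfe3 rose by 0.26 ± 0.1 on fenofibrate (1.2-fold, adjusted p = 0.033) and differed by 0.12 ± 0.1 on fish oil. The Tfe3 call was lost without controls 1, 2 and 9 (0.25, adjusted p = 0.0624). It was also lost without any 1 of controls 2, 3, 6, 7, 8 and 9 and fenofibrate 3, 5 and 7 (adjusted p 0.05 to 0.0667).

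**Figure D2:**
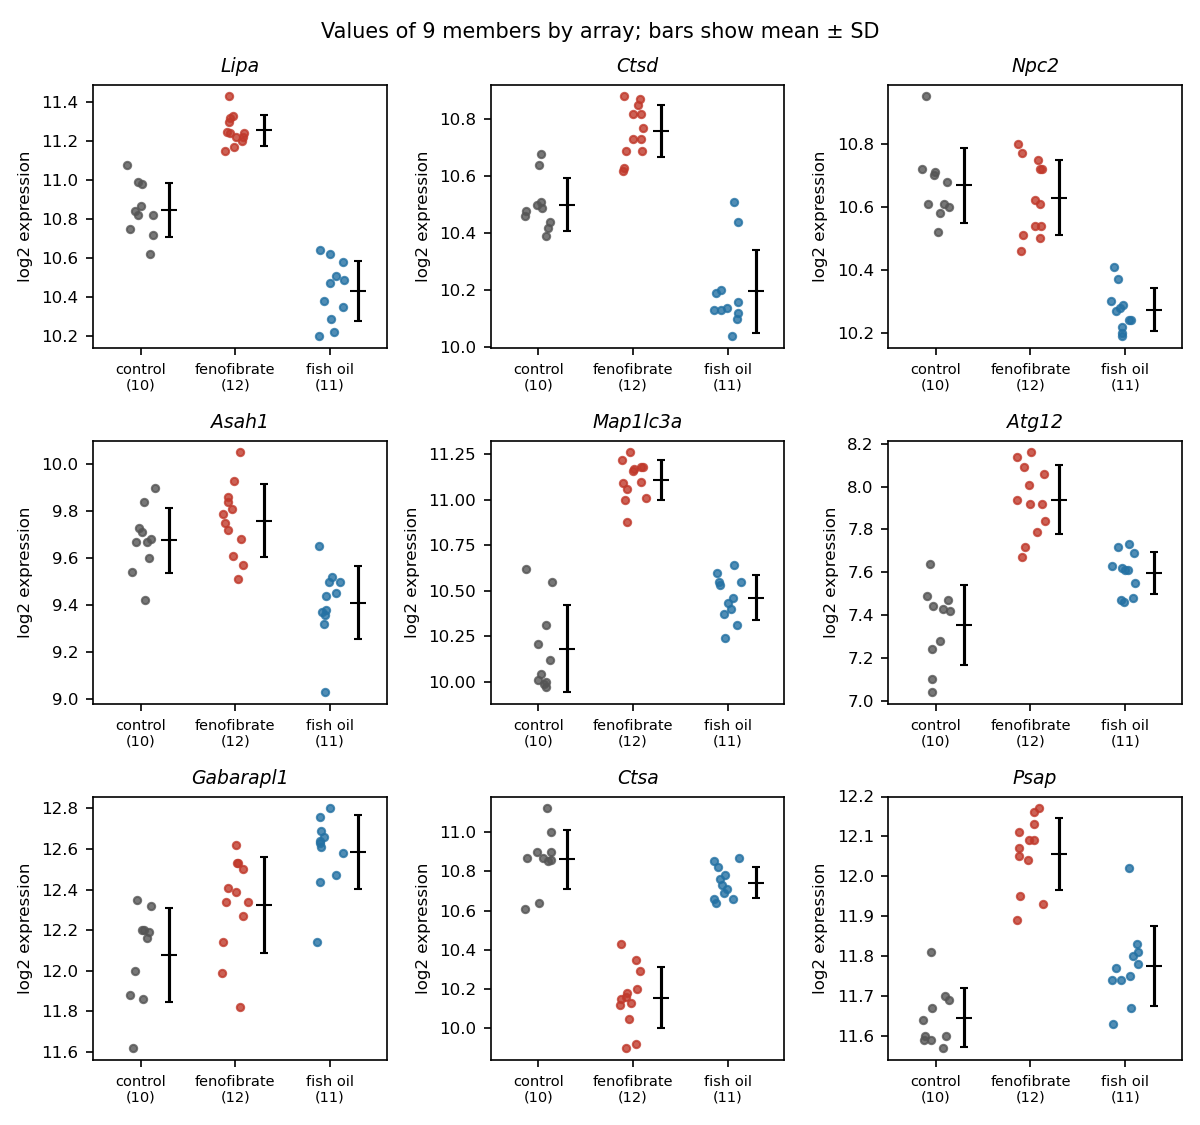
Log2 expression (vertical axis, scaled to each gene) of 9 members in every mouse, as 10 control, 12 fenofibrate and 11 fish oil points with the mean ± SD beside them. Lipa and Ctsd lie high on fenofibrate and low on fish oil, Npc2 is low on fish oil, and the fenofibrate arrays of Map1lc3a and Ctsa do not overlap those of the other diets.

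Of the 4 lysosomal membrane proteins that are no pump subunits, Lamp2 was the only called one. LAMP2 coats the inner face of the lysosomal membrane and takes part in fusion and chaperone-mediated autophagy. Its values were 12.76 to 12.94 in controls (median 12.83), 12.41 to 12.71 on fenofibrate (median 12.6) and 12.76 to 12.9 on fish oil (median 12.86). All 12 fenofibrate arrays lay below all arrays of the other 2 groups. Lamp2 fell by 0.24 ± 0.04 on fenofibrate (1.18-fold, adjusted p = 1.31e-06), differed by 0.02 ± 0.04 on fish oil, and was lower on fenofibrate than on fish oil (-0.26 ± 0.03, adjusted p = 1.88e-07). Of its 4 probe sets, 3 were called lower on fenofibrate and the other gave -0.09 ± 0.04 (adjusted p = 0.0561).

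Lamp1, its close relative, differed by -0.01 ± 0.04 and 0.07 ± 0.04. Between the diets Lamp1 differed by -0.08 ± 0.04 (adjusted p = 0.0685) and was called without fenofibrate 4 or fish oil 8 (adjusted p 0.0414 and 0.0481). Npc1, which exports cholesterol from lysosomes, differed by -0.07 ± 0.07 and 0.04 ± 0.08. Mcoln1, a calcium channel, differed by -0.12 ± 0.08 and -0.05 ± 0.08, and on fenofibrate it was -0.21 (adjusted p = 0.0327) without controls 1, 2 and 9.

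The proton pump acidifies the lysosome, and 2 of its 4 members rose on fenofibrate by small amounts, beside 22% of all genes. Atp6v1a, the catalytic subunit, rose by 0.18 ± 0.06 (1.13-fold, adjusted p = 0.0158) and Atp6v0d1, of the membrane sector, by 0.13 ± 0.04 (1.09-fold, adjusted p = 0.0115). Neither was called on fish oil (0.12 ± 0.06 and 0.01 ± 0.04). Atp6v1h, a regulatory subunit, was higher on fenofibrate than on fish oil by 0.26 ± 0.07 (adjusted p = 0.0032), and its values against control were 0.11 ± 0.07 and -0.15 ± 0.07. Without controls 1, 2 and 9 its fenofibrate value was 0.2 (adjusted p = 0.0259). Atp6ap1, an accessory subunit, differed by -0.05 ± 0.05 and -0.06 ± 0.05.

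Among the 8 cathepsins, the proteases and peptidases of the lysosome, fenofibrate lowered 4 and raised 1, and fish oil lowered 3. Of all genes tested, 18.9% fell and 22% rose on fenofibrate, and 7.00% fell on fish oil. Ctsa encodes a serine carboxypeptidase that also protects β-galactosidase and neuraminidase in a complex. It ran from 10.61 to 11.12 in controls (median 10.87), from 9.9 to 10.43 on fenofibrate (median 10.16) and from 10.64 to 10.87 on fish oil (median 10.73). Fenofibrate arrays did not overlap those of either other group. Ctsa fell by 0.71 ± 0.06 on fenofibrate (1.63-fold, adjusted p = 1.12e-11), the largest fall of any member. On fish oil the difference was -0.12 ± 0.06 (adjusted p = 0.194), and -0.18 (adjusted p = 0.037) without controls 1, 2 and 9. Between the diets it was -0.59 ± 0.06 (adjusted p = 4.48e-10).

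Ctsd, the main aspartic protease of lysosomes, moved in opposite directions. Controls ran from 10.39 to 10.68 (median 10.48), fenofibrate from 10.62 to 10.88 (median 10.75) and fish oil from 10.04 to 10.51 (median 10.14). Of the fenofibrate arrays 10 of 12 lay above every control, of the fish oil arrays 9 of 11 lay below every control, and the 2 treated groups did not overlap. Ctsd rose by 0.26 ± 0.05 on fenofibrate (1.2-fold, adjusted p = 1.12e-04), fell by 0.3 ± 0.05 on fish oil (1.23-fold, adjusted p = 8.27e-05), and differed between the diets by 0.56 ± 0.05 (adjusted p = 5.24e-11).

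Ctsz, a carboxypeptidase, ran from 12.48 to 12.78 in controls (median 12.68), from 12.26 to 12.66 on fenofibrate (median 12.38) and from 12.42 to 12.75 on fish oil (median 12.57). It fell by 0.26 ± 0.05 on fenofibrate (1.2-fold, adjusted p = 3.91e-05), with 9 arrays below every control, and differed by -0.11 ± 0.05 on fish oil. Ctsh, an aminopeptidase, fell by 0.14 ± 0.04 on fenofibrate (1.1-fold, adjusted p = 0.00529) and gave 0.01 ± 0.04 on fish oil. Between the diets Ctsz (-0.15 ± 0.05) and Ctsh (-0.15 ± 0.04) were both lower on fenofibrate.

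Ctsl, a cysteine endopeptidase, was 12.98 to 13.33 in controls (median 13.09), 12.71 to 13.06 on fenofibrate (median 12.97) and 12.74 to 13.22 on fish oil (median 12.96). Below every control were 7 fenofibrate and 8 fish oil arrays. It fell by 0.22 ± 0.06 on fenofibrate (1.16-fold, adjusted p = 0.00224) and by 0.18 ± 0.06 on fish oil (1.13-fold, adjusted p = 0.0294). A second, dim probe set gave -0.5 ± 0.14 and -0.34 ± 0.14, of which the first was called, and the mean of both was -0.36 on fenofibrate. The fish oil call of Ctsl was lost without controls 1, 2 and 9 (-0.16, adjusted p = 0.0732). It was also lost without any 1 of controls 2 and 5 and fish oil 1, 3 and 8 (adjusted p 0.0502 to 0.0657).

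Ctsb, a cysteine cathepsin, fell by 0.12 ± 0.04 on fish oil (1.09-fold, adjusted p = 0.0272) and gave -0.02 ± 0.04 on fenofibrate. That call was lost without control 2, control 5 or fish oil 4 (adjusted p 0.0502 to 0.0545), and without controls 1, 2 and 9 (-0.11, adjusted p = 0.0825). Between the diets Ctsb was higher on fenofibrate by 0.1 ± 0.04 (adjusted p = 0.0284), lost without fish oil 4 or 5 or fenofibrate 7 (adjusted p 0.0507 to 0.0601). The second-brightest probe set was called the same way on fish oil (-0.16 ± 0.04, adjusted p = 0.00902) and between the diets (0.15 ± 0.04, adjusted p = 0.00357). A dimmer one was called the other way between the diets (-0.34 ± 0.1, adjusted p = 0.0117), and the mean of all 4 gave 0.01 (adjusted p = 0.891). On fish oil that mean was -0.12 (adjusted p = 0.117). The dimmer probe set was also called lower on fenofibrate than in controls (-0.4 ± 0.11, adjusted p = 0.00361). Ctsc, a dipeptidyl peptidase that activates serine proteases of immune cells, differed by -0.01 ± 0.08 and -0.14 ± 0.08.

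Ctss, a cathepsin of antigen-presenting cells, was 10.74 to 11.6 in controls (median 10.93), 10.08 to 11.22 on fenofibrate (median 10.81) and 10.36 to 11.28 on fish oil (median 10.74). The differences were -0.29 ± 0.12 (adjusted p = 0.0504) and -0.21 ± 0.12 (adjusted p = 0.254). On fenofibrate it was called without any 1 of controls 3, 4, 6 and 10, fenofibrate 9 and fish oil 2, 7 and 9 (adjusted p 0.0222 to 0.0453). Of 18 Kupffer cell and macrophage markers measured, 4 fell on fenofibrate (22.2%, beside 18.9% of all genes) and none rose, with a median of -0.22. On fish oil 1 fell (5.56%, beside 7.00%), with a median of -0.07. Their summed linear level ran from 11794 to 19589 in controls, from 8035 to 16769 on fenofibrate and from 10375 to 19228 on fish oil. Of the defining genes, Clec4f changed by -0.43 ± 0.1 on fenofibrate (adjusted p = 8.65e-04) and -0.16 ± 0.1 on fish oil, and Adgre1 by -0.16 ± 0.13 and -0.01 ± 0.13. None of the 18 was below the filter, and their part in the cathepsin values was not tested.

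Of the 5 lysosomal lipid hydrolases and helpers, 4 were higher on fenofibrate than on fish oil, beside 19.8% of all genes. Against controls, fish oil lowered 4 and raised 1, beside 7.00% and 7.53% of all genes. Fenofibrate raised 2 and lowered 1, beside 22% and 18.9%. Lipa, the lysosomal acid lipase that cleaves cholesteryl esters and triglycerides, ran from 10.62 to 11.08 in controls (median 10.83), from 11.15 to 11.43 on fenofibrate (median 11.24) and from 10.2 to 10.64 on fish oil (median 10.47). All fenofibrate arrays were above all others, and 9 of 11 fish oil arrays were below every control. Lipa rose by 0.41 ± 0.06 on fenofibrate (1.33-fold, adjusted p = 4.10e-07) and fell by 0.42 ± 0.06 on fish oil (1.34-fold, adjusted p = 2.37e-06). The difference between the diets was 0.82 ± 0.05 (1.77-fold, adjusted p = 4.92e-14). Its other 2 probe sets gave 0.34 ± 0.09 and 0.68 ± 0.07 on fenofibrate and -0.46 ± 0.1 and -0.45 ± 0.07 on fish oil, all called.

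Npc2, the soluble protein that hands cholesterol released by acid lipase to NPC1, changed on fish oil. Values were 10.52 to 10.95 in controls (median 10.65), 10.46 to 10.8 on fenofibrate (median 10.61) and 10.19 to 10.41 on fish oil (median 10.27), and every fish oil array lay below every other. Npc2 fell by 0.39 ± 0.05 on fish oil (1.31-fold, adjusted p = 4.08e-07) and differed by -0.04 ± 0.05 on fenofibrate, and the diets differed by 0.35 ± 0.05 (adjusted p = 2.43e-07). A second probe set gave -0.43 ± 0.06 on fish oil.

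Asah1, the acid ceramidase, ran from 9.42 to 9.9 in controls (median 9.67), from 9.51 to 10.05 on fenofibrate (median 9.77) and from 9.03 to 9.65 on fish oil (median 9.44). It fell by 0.26 ± 0.07 on fish oil (1.2-fold, adjusted p = 0.00557), with 5 arrays below every control, and gave 0.09 ± 0.07 on fenofibrate. The diets differed by 0.35 ± 0.06 (adjusted p = 4.10e-05).

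Smpd1, the acid sphingomyelinase, ran from 8.93 to 9.34 in controls (median 9.12), from 8.75 to 9.13 on fenofibrate (median 8.99) and from 8.73 to 9.15 on fish oil (median 8.88). It fell by 0.16 ± 0.06 on fenofibrate (1.12-fold, adjusted p = 0.0301) and by 0.19 ± 0.06 on fish oil (1.14-fold, adjusted p = 0.0259). Both calls were lost without controls 1, 2 and 9, at -0.12 (adjusted p = 0.129) and -0.16 (adjusted p = 0.0996). The fenofibrate call was also lost without any 1 of controls 1, 2 and 3 and fenofibrate 11 (adjusted p 0.0525 to 0.0678), and the fish oil call without control 1, control 3 or fish oil 8 (adjusted p 0.0501 to 0.0544).

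Psap encodes prosaposin, the precursor of the saposins that present sphingolipids to their hydrolases. It ran from 11.57 to 11.81 in controls (median 11.62), from 11.89 to 12.17 on fenofibrate (median 12.08) and from 11.63 to 12.02 on fish oil (median 11.77). All fenofibrate arrays were above all controls. Psap rose by 0.41 ± 0.04 on fenofibrate (1.33-fold, adjusted p = 1.51e-09) and by 0.13 ± 0.04 on fish oil (1.1-fold, adjusted p = 0.0376), and the diets differed by 0.28 ± 0.04 (adjusted p = 1.57e-06). The fish oil call was lost without any 1 of controls 2, 3, 5, 6, 7 and 10 and fish oil 1, 2, 8 and 9 (adjusted p 0.0514 to 0.0681).

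Of the 3 glycosidases, 2 rose on fenofibrate, beside 22% of all genes, and none was called on fish oil. Gaa, the acid α-glucosidase that degrades glycogen in lysosomes, ran from 9.93 to 10.18 in controls (median 10.11), from 10.33 to 10.52 on fenofibrate (median 10.41) and from 9.99 to 10.19 on fish oil (median 10.13), with no overlap between fenofibrate and the others. It rose by 0.31 ± 0.03 (1.24-fold, adjusted p = 5.55e-09), against 0.02 ± 0.03 on fish oil, and a second probe set gave 0.6 ± 0.06 on fenofibrate. The brightest Gaa probe set is of the type (x_at) whose probes may bind other transcripts, and the second is not. Between the diets Gaa differed by 0.29 ± 0.03 (adjusted p = 1.08e-08), and by 0.45 when both probe sets were averaged.

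Hexa, the α subunit of β-hexosaminidase, ran from 9.75 to 10.21 in controls (median 9.92), from 10.1 to 10.42 on fenofibrate (median 10.23) and from 9.77 to 10.25 on fish oil (median 9.92). It rose by 0.3 ± 0.06 on fenofibrate (1.23-fold, adjusted p = 1.31e-04) and differed by -0.01 ± 0.06 on fish oil, and the diets differed by 0.3 ± 0.06 (adjusted p = 7.92e-05). Glb1, the lysosomal β-galactosidase, gave -0.01 ± 0.07 and 0.06 ± 0.07.

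Against control, Ctsd and Lipa were called in opposite directions on the 2 diets, and 7 members were called the same way: Atg7, Atg12, Map1lc3a, Gabarapl1 and Psap rose, and Ctsl and Smpd1 fell. Another 21 members were called on neither diet, among them Lamp1, Sqstm1, Becn1 and Npc1. A p that misses the threshold does not show that these levels were equal. Calls were also repeated with a random block for arrays whose label numbers follow each other. This ended the fenofibrate calls of Atg4b, Gabarapl1, Tfe3 and Smpd1 (adjusted p 0.0535, 0.0568, 0.0695 and 0.0618) and the fish oil calls of Ctsb, Ctsl, Smpd1 and Psap (adjusted p 0.0759, 0.0756, 0.0716 and 0.0829). Between the diets it ended those of Ulk1, Atg3, Wipi2 and Ctsb (adjusted p 0.0603, 0.066, 0.0631 and 0.0659). Testing all genes with no filter also ended 9 of these calls, those other than Gabarapl1 and Smpd1. With each array centred on its median, the fish oil value of Psap was 0.11 (adjusted p = 0.103). With array weights, Atg5 (0.17), Wipi2 (0.16), Ctsa (-0.16) and Ctsz (-0.14) were also called on fish oil (adjusted p 0.0308, 0.0459, 0.0256 and 0.029).

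Other genes of the pathway were read from lists by role, 145 genes of which 128 were measured. On fenofibrate 30 rose and 19 fell (23.4% and 14.8%, beside 22% and 18.9% of all genes), with a median of 0.01. On fish oil 10 rose and 6 fell (7.81% and 4.69%, beside 7.53% and 7.00%), with a median of 0.06. These shares lie near those of all genes. The fish oil count of 10 became 5 without fish oil 11. On fenofibrate 4 of 9 other initiation genes fell and 1 rose. Those 4, named after their values were seen, were Atg13 (-0.31) and Atg101 (-0.41), partners of ULK1 in its kinase complex, Pik3r4 (-0.27) and Uvrag (-0.21), of the PIK3C3 complex. None of the 9 was called on fish oil.

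Of 24 nutrient sensing and transcription genes, 4 rose on fenofibrate (16.7%, beside 22% of all genes) and none fell. Mtor, the kinase that holds autophagy down in fed cells, ran from 8.86 to 9.19 in controls and from 9.22 to 9.55 on fenofibrate, with no overlap, and rose by 0.38 ± 0.05 (1.3-fold, adjusted p = 1.17e-06). On fish oil Mtor differed by 0.1 ± 0.06. Among 11 other pump subunits 3 rose on fenofibrate and 1 fell. Atp6v1c1 rose by 0.32 ± 0.05 (adjusted p = 1.39e-06) and gave -0.03 ± 0.05 on fish oil, and Atp6v1g1 fell on both diets, by 0.22 ± 0.05 and 0.21 ± 0.05. Of 13 other membrane proteins 2 rose and 3 fell on fenofibrate, and none was called on fish oil. Tmem192 rose by 0.43 ± 0.09 (adjusted p = 2.57e-04) on fenofibrate.

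Gm2a, the activator protein of ganglioside breakdown, had values of 9.73 to 10.06 in controls, 8.6 to 9.13 on fenofibrate and 9.28 to 9.82 on fish oil. It fell by 0.9 ± 0.07 on fenofibrate (1.87-fold, adjusted p = 6.71e-13) and by 0.33 ± 0.07 on fish oil (1.25-fold, adjusted p = 8.12e-04). Naglu, a heparan sulfate glycosidase, fell by 0.67 ± 0.11 and 0.44 ± 0.11. Man2b1, the lysosomal α-mannosidase, fell by 0.3 ± 0.05 on fenofibrate and rose by 0.17 ± 0.05 on fish oil (adjusted p = 1.70e-05 and 0.0292).

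Scpep1, a serine carboxypeptidase, rose by 0.19 ± 0.07 on fenofibrate (adjusted p = 0.0357) and fell by 0.45 ± 0.08 on fish oil (adjusted p = 4.66e-05), and the diets differed by 0.65 ± 0.07. Dpp7, a dipeptidyl peptidase, rose by 0.54 ± 0.11 on fenofibrate and differed by -0.17 ± 0.11 on fish oil. M6pr, a receptor that carries hydrolases to lysosomes, rose by 0.16 ± 0.04 on fenofibrate and differed by -0.07 ± 0.04 on fish oil.

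Of the other membrane formation genes, Tmem41b, a lipid scramblase, rose by 0.21 ± 0.08 on fenofibrate and fell by 0.46 ± 0.08 on fish oil (adjusted p = 0.0328 and 9.34e-05). Atg16l2 fell by 1.19 ± 0.2 on fish oil (adjusted p = 7.92e-05), from 4.18 to 6.06 in controls to 3.39 to 4.52, close to the filter. Calcoco1, an autophagy receptor, rose by 0.27 ± 0.1 and 0.4 ± 0.11.

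**Figure D3:**
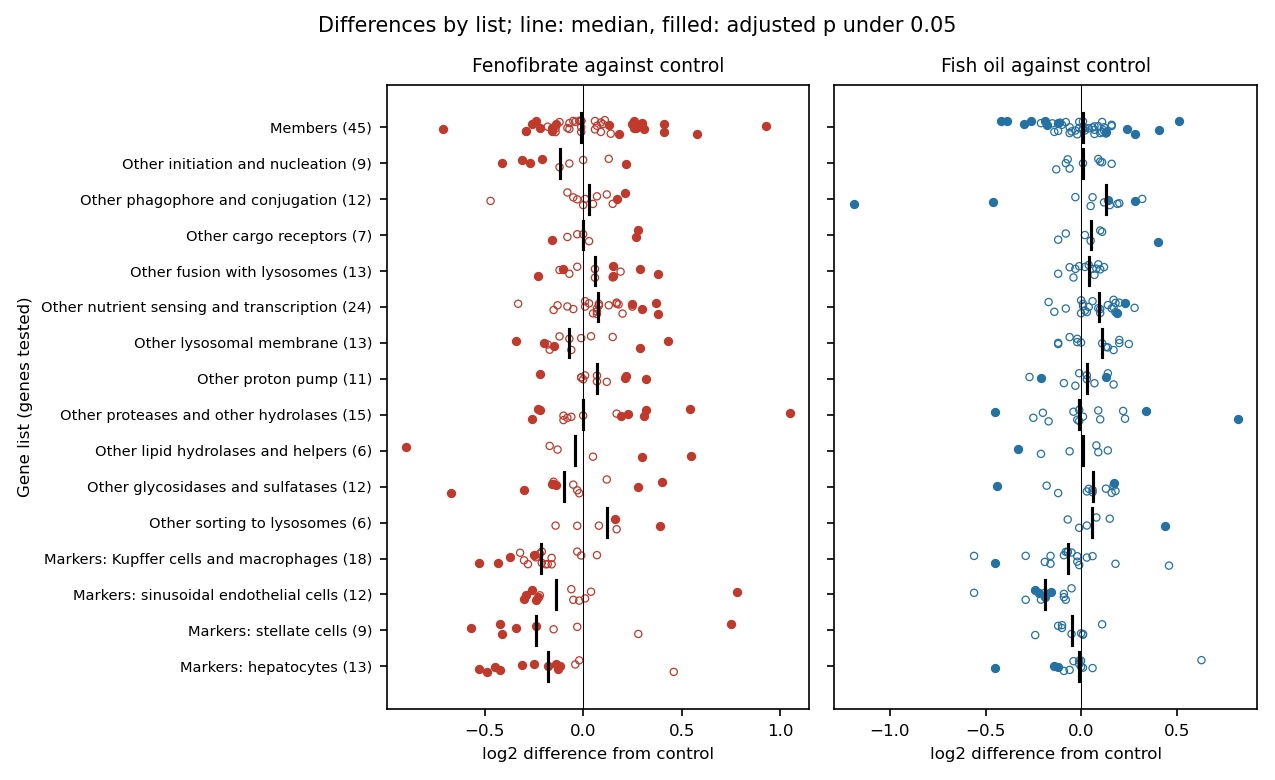
Log2 difference from control (horizontal axis) of every measured gene of each list, for fenofibrate (left) and fish oil (right), with the number of genes tested in brackets, the median as a black line and filled points past an adjusted p of 0.05. The members have medians of -0.01 and 0.01, the Kupffer cell markers -0.22 and -0.07, and the hepatocyte markers -0.18 and -0.01.

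Marker genes of liver cell types also differed between the diets. Of all genes tested, 22% rose and 18.9% fell on fenofibrate, and 7.53% rose and 7.00% fell on fish oil. Of 13 measured hepatocyte markers, 10 fell on fenofibrate (76.9%) and 3 on fish oil (23.1%), with none higher. Their summed linear level had a median of 208281 in controls, 182839 on fenofibrate and 202372 on fish oil. Among 12 sinusoidal endothelial markers, 5 fell (41.7%) and 1, Lyve1 (0.78), rose on fenofibrate and 4 fell on fish oil (33.3%). Of 9 stellate cell markers, 5 fell (55.6%) and 1, Col3a1 (0.75), rose on fenofibrate and none was called on fish oil. Of the lymphocyte list 1 gene was measured, Ighm, which rose by 0.67 on fenofibrate. Of the neutrophil and blood cell list 2 genes were measured, and Alas2 fell by 1.04 on fenofibrate. These 4 genes were named after their values were seen. The part of cell composition in the members' values was not tested.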

How the data were processed

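Liver RNA was hybridised to Affymetrix Mouse Genome arrays. The authors deposited log2 expression values for each probe set, computed by GCRMA (version 2.24.1, per the submitters' processing notes). GCRMA makes the arrays' distributions equal, and values of dim probe sets lie close to the background. Of 45101 probe sets, 64 controls were dropped. In the platform annotation 34945 of the rest carry 1 gene, 932 several and 9160 none, and gene identifiers gave current symbols for 34741. The filter asked for log2 4 or more on 10 or more of the 33 arrays. It kept 17162 probe sets, 15203 of them with 1 gene, and the brightest stood for its gene (9005 genes).

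A linear model over the 3 groups was fitted per gene in limma 3.58.1 (statmod 1.5.0, R 4.3.3). P-values were two-sided and were adjusted by Benjamini-Hochberg across all 9005 genes, or across all 17162 probe sets where single probe sets were read. The fit was tested on simulated data. The p-values measure the spread between mice as if these were independent, while neighbouring array label numbers correlated (consensus correlation 0.23, 16 pairs). Each pair lay within 1 diet, so p-values that ignore the pairs may be too small. Members and gene lists were chosen with earlier results of these data known. Every member is named, with the range per diet for the 5 largest rises and falls per comparison and for those called in opposite directions. Other genes of the pathway are named by the smallest adjusted p per list, up to 6 per comparison, and exceptions are stated. Alternatives changed the filter, scaling, probe set, variance model, array weights, blocks and arrays used. RefSeq promoters were searched on both strands.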

Additional observations from a re-analysis of the deposited data

Results flagged for a closer look

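The 10 controls were checked for a single array far from the rest in each of the 45 measured members (the gap to the nearest array, divided by the group's range, above Dixon's critical value for 10). Chance alone marks about 1 in 20 groups, and 5 of 45 were marked here. Groups of 11 and 12 arrays were not checked.

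For Ulk2, control 9 was the lowest at 8.95, with the next at 9.18. For Ctsz, control 1 was the lowest at 12.48, with the next at 12.64. For Npc2, control 5 was the highest at 10.95, with the next at 10.72. For Psap, control 9 was the highest at 11.81, with the next at 11.7. For Gaa, control 2 was the lowest at 9.93, with the next at 10.06. These values stayed in the comparisons. Leaving out controls 1, 2 and 9 together, or any 1 array, ended none of the calls of Ctsz, Npc2 and Gaa. The fish oil call of Psap was lost without each of 10 single arrays, of which control 9 was none.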

How the results depend on the processing

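With each gene read from 1 value, no called direction reversed over 45 alternatives, and 17 of 21 fenofibrate calls, 8 of 12 fish oil calls and 17 of 23 calls between the diets held in every one. Read probe set by probe set, Ctsb was called in both directions between the diets (0.1 and -0.34). Asked also to reach 1.2-fold, 8 members were higher and 2 lower on fenofibrate than in controls. On fish oil 3 were higher and 4 lower, and between the diets 9 were higher and 2 lower on fenofibrate. By this rule 27.5%, 9.65% and 25.4% of all genes were called in the 3 comparisons, in either direction. It dropped 11, 5 and 12 called members. Among them, the fenofibrate folds of Ctsd, Ctsz and Tfe3 were just under 1.2 and are printed above as 1.2 after rounding. With array weights 8 members were higher on fish oil, and 21.7% of all genes were called in either direction (14.5% in the main fit). With consecutive label numbers as a random block 4 members were lower on fish oil, and 9.38% of all genes were called. Leaving out 1 array at a time gave 11 to 13 higher and 7 to 10 lower on fenofibrate, 4 to 5 and 5 to 7 on fish oil, and 12 to 13 and 7 to 11 between the diets. Other pathway genes higher on fish oil numbered 10, but 5 with no filter, 5 with each array centred on its median and 2 with the random block. At 1.2-fold they numbered 19 higher and 8 lower on fenofibrate, 5 higher on fish oil, and 13 and 10 between the diets.

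Of 31 pairs with the same replicate number on different diets, 12 correlated above 0.1 in their deviations (median 0.0524, range -0.206 to 0.354). Pairs with different numbers on different diets were not measured, so these values cannot show whether the numbers in the titles pair mice. With the replicate block, 13 members rose and 9 fell on fenofibrate, 5 and 6 on fish oil, and 12 and 9 between the diets. Small differences of dim probe sets are limited by signal over background, and cage mates could not be identified from the labels.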

Other observations

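Further genes of the lysosome changed, and those named here were chosen after their values were seen. Dnase2a, the acid nuclease of lysosomes, rose by 1.05 ± 0.24 on fenofibrate (adjusted p = 4.98e-04) and by 0.82 ± 0.24 on fish oil (adjusted p = 0.0178, limma). Its control values spread from 9.04 to 12.21, against 11.77 to 12.51 on fenofibrate and 10.57 to 12.32 on fish oil, and its probe set is of the type that may bind other transcripts. Arsa, the sulfatase that degrades sulfatide, ran from 9.1 to 9.96 in controls and from 9.92 to 10.5 on fenofibrate, and rose by 0.55 ± 0.09 (adjusted p = 6.34e-06). Snap29, a SNARE of autophagosome fusion, rose by 0.38 ± 0.12 on fenofibrate (adjusted p = 0.0122), and Gnptab, which marks hydrolases for transport to lysosomes, by 0.39 ± 0.12 (adjusted p = 0.0106). Sort1, a sorting receptor, rose by 0.44 ± 0.13 on fish oil (adjusted p = 0.021).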
